A study of Mus musculus with 20 samples.

Results

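Platelets are shed from megakaryocytes, the large marrow and fetal-liver cells that fill with granules and place a fixed set of adhesion receptors on their surface. The 10 genes described here were listed by name as genes of that lineage, from the 53379 genes in each deposited table, with no measured value used in the rule. They code for the fibrinogen receptor chain CD41 (Itga2b), the 4 chains of the von Willebrand factor receptor (Gp1ba, Gp1bb, Gp5 and Gp9), the collagen receptor GPVI (Gp6), the podoplanin receptor CLEC-2 (Clec1b), the granule chemokines platelet factor 4 (Pf4) and pro-platelet basic protein (Ppbp), and the cytoplasmic protein pleckstrin (Plek). All 10 were found in all 20 libraries, and all 10 passed the filter on low counts.

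GATA2 is a zinc finger transcription factor of stem cells, early progenitors, mast cells and megakaryocyte progenitors. Its relative GATA1 takes over as erythroid cells and megakaryocytes mature, and ETS factors such as FLI1 act with it at platelet genes. The study removed the enhancer named -77, which lies upstream of Gata2, and put GATA2 back with a virus. R307W and T354M are single amino acid changes in GATA2, in the N-terminal and the C-terminal zinc finger.

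Progenitors lacking mature lineage markers (Lin-) came from mouse fetal liver, were infected with a murine stem cell virus (MSCV) vector and grown for 3 days in medium with serum, interleukin 3 and stem cell factor. There were 5 groups of 4 libraries. Enhancer-null cells carried a vector coding for R307W (R307W cells), for T354M (T354M cells) or for unchanged GATA2 (GATA2 cells), or the control vector (enhancer-null control cells), and wild-type cells carried the control vector. The labels give the tissue, the medium, the age E14.5 and the C57BL/6J strain for the GATA2 cells, the enhancer-null control cells and the wild-type cells, and none of these for the R307W and T354M cells. Every group thus carries a virus, no group is uninfected, and there are no wild-type cells with a GATA2 vector. Nothing in the labels says that the 4 libraries of a group came from separate embryos, so the p-values measure the spread between these libraries.

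Levels are given in TPM, RSEM's transcript abundance scaled to gene length and to the library total. Total expected counts ran from 22330475 to 33245876 per library. Gata2, the targeted gene, had 29.9, 17.02, 20.2 and 37.8 TPM in R307W cells, 44.7, 20.8, 23.5 and 35.6 TPM in T354M cells, and 30.8, 33.2, 21.4 and 48.2 TPM in GATA2 cells. It had 2.20, 1.96, 1.57 and 2.38 TPM in enhancer-null control cells, against 16.04, 10.1, 13.7 and 17.1 TPM in wild-type cells. The enhancer-null control libraries were thus the lowest, and Gata2 was lower there than in wild-type cells by a log2 difference of -2.93 ± 0.36 (SE, edgeR's quasi-likelihood test, adjusted p = 2.88e-06). The 3 groups with a GATA2 vector did not differ from each other in Gata2 at the adjusted threshold, although the fitted R307W minus GATA2 difference was -0.56 ± 0.32 and the T354M minus GATA2 difference -0.63 ± 0.32. Markers of stem cells and early progenitors, 8 in number, were present in every group and summed to 291 to 377 TPM in R307W cells, 350 to 424 TPM in T354M cells, 212 to 319 TPM in GATA2 cells and 293 to 350 TPM in enhancer-null control cells, against 134 to 153 TPM in wild-type cells. Of these 5 were higher and 2 lower in enhancer-null control cells than in wild-type cells, and single markers went opposite ways. Cd34 averaged 159 TPM in enhancer-null control cells and 22.8 TPM in wild-type cells. Flt3 averaged 24.3 TPM in enhancer-null control cells and 1.48 TPM in wild-type cells, and Kit averaged 16.5 TPM in enhancer-null control cells and 25.6 TPM in wild-type cells. A single library stood apart for these genes. Replicate 4 of the enhancer-null control cells held the highest level of its group for 9 of the 10 genes, all but Plek. For the 10 genes the results that rest on it are given with and without it. Results for other genes are given with all libraries only.

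The cultures differed in the cells they held, as far as marker genes show. Mast cell and basophil markers summed to 323 to 721 TPM in R307W cells, 303 to 960 TPM in T354M cells, 1110 to 3310 TPM in GATA2 cells and 33.4 to 42.5 TPM in enhancer-null control cells, against 465 to 680 TPM in wild-type cells. In enhancer-null control cells 9 of these 10 markers were lower than in wild-type cells, and Tpsb2, a mast cell tryptase, was at 0. Eosinophil markers summed to 14.4 to 22.7 TPM in enhancer-null control cells, where 8 of 8 were lower than in wild-type cells, which summed to 652 to 1090 TPM. With R307W they summed to 1620 to 3860 TPM, with T354M to 1080 to 5720 TPM and with GATA2 to 2110 to 3770 TPM. Monocyte and macrophage markers summed to 3040 to 3680 TPM in enhancer-null control cells, with 10 of 10 higher than in wild-type cells, which summed to 727 to 1770 TPM. They summed to 550 to 1930 TPM with R307W, 718 to 2780 TPM with T354M and 503 to 1970 TPM with GATA2. Erythroid markers summed to 258 to 551 TPM with R307W, 170 to 193 TPM with T354M, 222 to 363 TPM with GATA2 and 190 to 479 TPM in enhancer-null control cells, against 1820 to 3230 TPM in wild-type cells. Hbb-bt, Hba-a1 and Tfrc made up most of these sums. In enhancer-null control cells 10 of 10 erythroid markers were lower than in wild-type cells. Against enhancer-null control cells 6 were higher and 2 lower with R307W, 1 higher and 5 lower with T354M, and 6 higher and 1 lower with GATA2. Neutrophil markers summed to 3350 to 5960 TPM with R307W, 6230 to 9020 TPM with T354M, 2440 to 4420 TPM with GATA2 and 5330 to 7790 TPM in enhancer-null control cells, where 6 of 10 were lower and 1 higher than in wild-type cells, which summed to 12400 to 32100 TPM. Hepatocyte markers summed to 90.4 to 760 TPM with R307W, 179 to 969 TPM with T354M, 161 to 889 TPM with GATA2 and 369 to 1070 TPM in enhancer-null control cells, against 436 to 1660 TPM in wild-type cells. These are bulk cultures, in which fewer megakaryocytes, less RNA per megakaryocyte and RNA of these genes from other cells cannot be told apart. The part that the cell makeup plays in the results that follow was not tested.

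**Figure D1:**
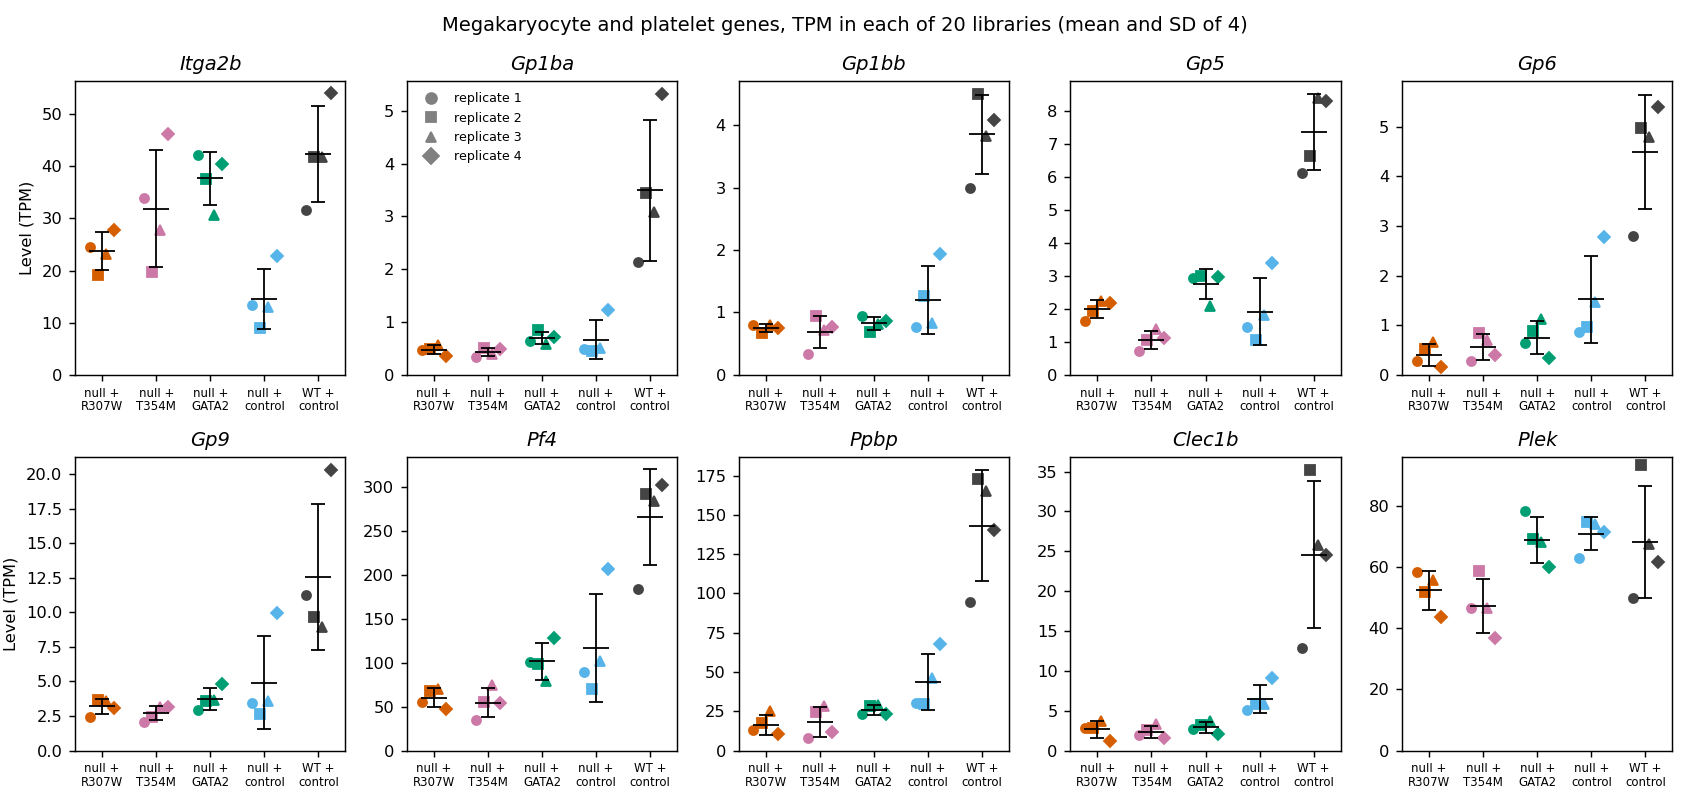
Level in TPM (vertical axis, linear from 0) of each of the 10 genes in each of the 20 libraries, by group (horizontal axis: enhancer-null cells with R307W, T354M, GATA2 or the control vector, and wild-type cells with the control vector). Points are libraries, with a marker for each replicate number, and bars are the mean and SD of 4. For all genes but Itga2b and Plek the 3 vector groups lie below all 4 wild-type libraries, and the diamond of the enhancer-null control cells is the highest of its group for all but Plek.

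Loss of the enhancer was set against the wild type in cells with the control vector. Of the 10 genes 9 were lower in enhancer-null control cells, and Plek was not called. All genes tested give the background, 15835 in number, of which 23.2% were lower and 20.1% higher in that comparison at an adjusted p under 0.05. The median log2 difference was -1.74 over the 10 genes and -0.05 over all genes. For 7 of the 10 genes the 4 enhancer-null control libraries did not overlap the 4 wild-type libraries in TPM, and all 7 were lower, where 14.8% of all genes tested were lower with no overlap.

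Itga2b, the integrin chain that pairs with the product of Itgb3 and appears on megakaryocyte progenitors before the other receptors, had 13.4, 9.02, 13.1 and 22.7 TPM in enhancer-null control cells, against 31.6, 41.8, 41.9 and 54.1 TPM in wild-type cells. The groups did not overlap, and the log2 difference was -1.55 ± 0.30 (SE, edgeR, adjusted p = 0.000371).

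The von Willebrand factor receptor tethers platelets to vessel walls under flow. Its ligand-binding chain Gp1ba had 0.49, 0.45, 0.5 and 1.22 TPM in enhancer-null control cells, against 2.14, 3.44, 3.08 and 5.31 TPM in wild-type cells. Its log2 difference of -2.43 ± 0.33 (SE, edgeR, adjusted p = 9.4e-06) was the most negative among the 10 genes. Gp1bb, the chain linked to it by a disulfide bond, averaged 1.20 ± 0.54 TPM in enhancer-null control cells and 3.86 ± 0.633 TPM in wild-type cells (SD, n = 4 each). Gp5, a chain that thrombin cleaves, averaged 1.92 ± 1.02 TPM in enhancer-null control cells and 7.37 ± 1.15 TPM in wild-type cells (SD, n = 4 each). The log2 differences were -1.72 ± 0.29 for Gp1bb and -1.99 ± 0.30 for Gp5 (SE). Both groups of libraries were apart for these 3 chains. Gp9, the small chain needed to bring the complex to the surface, had 3.45, 2.62, 3.62 and 9.92 TPM in enhancer-null control cells, against 11.3, 9.68, 8.92 and 20.3 TPM in wild-type cells. Replicate 4 alone made the groups overlap, and the log2 difference was -1.41 ± 0.38 with it and -2.08 without it (edgeR, adjusted p = 0.0059 and 6.65e-05). Gp1bb lies within the annotated bounds of Sept5 on the same strand, so its counts depend on how reads were shared between them.

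Gp6 and Clec1b signal through Syk after binding collagen and podoplanin. Gp6 had 0.87, 0.96, 1.47 and 2.78 TPM in enhancer-null control cells, against 2.80, 4.97, 4.80 and 5.40 TPM in wild-type cells. Clec1b had 5.08, 5.90, 5.83 and 9.06 TPM in enhancer-null control cells, against 12.8, 35.2, 25.8 and 24.6 TPM in wild-type cells. Neither gene's groups overlapped, although for Gp6 the highest enhancer-null library almost reached the lowest wild-type one. The log2 differences were -1.75 ± 0.38 for Gp6 and -1.99 ± 0.31 for Clec1b (SE, edgeR, adjusted p = 0.00095 and 3.93e-05).

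The chemokines are stored in alpha granules and released on activation. Pf4 had 88.9, 70.4, 101.8 and 206.7 TPM in enhancer-null control cells, against 184.1, 291.8, 283.3 and 301.3 TPM in wild-type cells. Ppbp, whose gene lies 2371 bases from Pf4 on the same strand, had 30.5, 29.7, 46.1 and 67.9 TPM in enhancer-null control cells, against 94.4, 172.7, 165.2 and 140.4 TPM in wild-type cells. The groups overlapped for Pf4, through replicate 4 of the enhancer-null control cells and replicate 1 of the wild-type cells, and not for Ppbp. Their log2 differences were -1.19 ± 0.33 for Pf4 and -1.78 ± 0.37 for Ppbp (SE, edgeR, adjusted p = 0.00667 and 0.00062). Plek, a substrate of protein kinase C that other blood cells also make, averaged 70.9 ± 5.35 TPM in enhancer-null control cells and 68.1 ± 18.4 TPM in wild-type cells (SD, n = 4 each). Its log2 difference was -0.07 ± 0.14 (SE), and the groups overlapped.

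Without replicate 4 of the enhancer-null control cells 9 of the 10 genes were still lower. The lowest expected count in any library was 15 for Gp6, 16 for Gp1bb and 25 for Gp1ba, where 1 read weighs most, against 500 for Itga2b and 4453 for Plek.

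**Figure D2:**
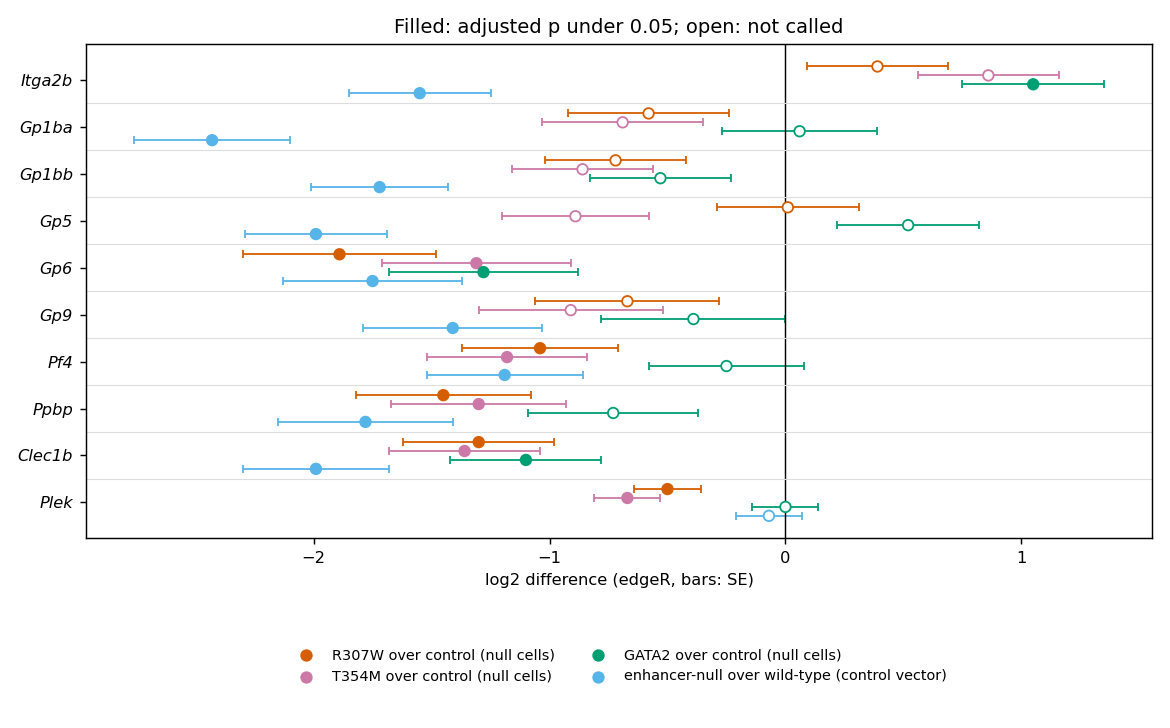
Fitted log2 difference (horizontal axis, bars are SE) of each of the 10 genes for R307W, T354M and GATA2 over the control vector in enhancer-null cells, and for enhancer-null over wild-type cells with the control vector. Filled points passed an adjusted p of 0.05 in edgeR's quasi-likelihood test. Itga2b is the one gene with a filled point right of 0, at 1.05 with GATA2, and 9 of 10 points for the loss of the enhancer are filled and left of 0.

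The 3 vectors were next compared with the control vector in enhancer-null cells, which asks whether GATA2 or a variant brings these genes back. All 3 comparisons share the same 4 enhancer-null control libraries, so their values are set side by side and are not independent. With GATA2, 1 gene of 10 was higher and 2 were lower, against a background of 11% higher and 8.23% lower. With R307W 5 were lower, against 7.48% lower and 10% higher among all genes, and with T354M 5 were lower, against 8.11% lower and 9.26% higher. The medians over the 10 genes were -0.70 with R307W, -0.90 with T354M and -0.32 with GATA2, where those of all genes were 0.02, 0.02 and 0.00. In the 3 vector groups Clec1b and Gp6 were lower each time, and with each variant Pf4, Ppbp and Plek were lower too.

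These calls rest in large part on replicate 4 of the enhancer-null control cells. Without it, 2 genes were lower with R307W (Gp6 and Clec1b), and 2 were lower (Clec1b and Plek) and 1 higher (Itga2b) with T354M. With GATA2, 2 genes were then higher (Itga2b and Gp5) and Clec1b and Gp6 were no longer called, at adjusted p = 0.0896 and 0.15. Of the 13 calls against the enhancer-null control cells 11 were lost when replicate 4 was left out of every group. Without replicate 4 of the GATA2 cells edgeR called none with GATA2, where Itga2b, Gp6 and Clec1b had adjusted p = 0.0796, 0.107 and 0.0725.

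Over the 20 libraries edgeR called Itga2b, alone of the 10 genes, higher with a vector, and that with GATA2. It had 24.6, 19.1, 23.2 and 27.9 TPM in R307W cells, 34, 19.7, 27.7 and 46.2 TPM in T354M cells and 42.1, 37.5, 30.6 and 40.5 TPM in GATA2 cells, against 13.4, 9.02, 13.1 and 22.7 TPM in enhancer-null control cells. Every GATA2 library lay above every enhancer-null control library, whereas the libraries of each variant overlapped them through replicate 4. The log2 difference from the enhancer-null control cells was 1.05 ± 0.30 with GATA2 (SE, edgeR, adjusted p = 0.0202), 0.39 ± 0.30 with R307W (adjusted p = 0.403) and 0.86 ± 0.30 with T354M (adjusted p = 0.0543). The GATA2 call was lost when replicate 1, 2 or 3 of the enhancer-null control cells or replicate 4 of the GATA2 cells was left out, at adjusted p = 0.0623, 0.0633, 0.0553 and 0.0796. The T354M difference was called without replicate 4 of the enhancer-null control cells (1.27, adjusted p = 0.00486) and without replicate 2 of the T354M cells (1.02, adjusted p = 0.0221). It was also called by edgeR with the replicate number as a block (0.89, adjusted p = 0.00174) or with no filter on low counts (0.87, adjusted p = 0.0204), by DESeq2's Wald test (0.83, adjusted p = 0.0286) and by limma on log2(TPM + 1) (1.09, adjusted p = 0.00658). With R307W it was called when replicate 4 was left out of every group (0.70, adjusted p = 0.026). As a share of the wild-type mean in TPM, Itga2b stood at 56% with R307W, 75.3% with T354M, 89.0% with GATA2 and 34.4% with the control vector. The edgeR fit to the counts put the 3 vectors lower. Its folds over wild-type cells were 0.447 with R307W, 0.619 with T354M, 0.705 with GATA2 and 0.341 with the control vector.

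Of the von Willebrand factor receptor chains none was called with any vector by edgeR over the 20 libraries, where Gp1bb with R307W and T354M, Gp5 with T354M and Gp9 with T354M had an unadjusted p under 0.05. Gp1bb and Gp5 lay at the threshold with T354M, at log2 differences of -0.86 and -0.89 (edgeR, adjusted p = 0.0548 and 0.0547). Both were called lower by DESeq2's Wald test (adjusted p = 0.0235 and 0.0213) and by edgeR with the replicate number as a block (-0.84 each, adjusted p = 0.025 and 0.0264). Gp1bb was also called by edgeR without replicate 1 or 3 of the enhancer-null control cells or replicate 2 of the T354M cells (adjusted p = 0.0344, 0.0416 and 0.0411). Gp5 was called without replicate 2 of the enhancer-null control cells or replicate 3 of the T354M cells (adjusted p = 0.0172 and 0.0404). Gp9 was called lower with T354M by edgeR with the block fitted over the 16 enhancer-null libraries alone (-0.84, adjusted p = 0.0431). Gp1ba averaged 0.475 ± 0.0866 TPM in R307W cells, 0.432 ± 0.081 TPM in T354M cells, 0.698 ± 0.113 TPM in GATA2 cells and 0.665 ± 0.371 TPM in enhancer-null control cells, against 3.49 ± 1.33 TPM in wild-type cells (SD, n = 4 each). Gp9 averaged 3.19 ± 0.564 TPM in R307W cells, 2.71 ± 0.523 TPM in T354M cells, 3.74 ± 0.788 TPM in GATA2 cells and 4.90 ± 3.37 TPM in enhancer-null control cells (SD, n = 4 each). The means with R307W and T354M lay below that with the control vector for Gp1ba and Gp9, by less than the SD of the enhancer-null control libraries. Gp5 had 1.63, 1.95, 2.25 and 2.19 TPM in R307W cells, 0.73, 1.05, 1.38 and 1.11 TPM in T354M cells and 2.93, 3.01, 2.08 and 2.98 TPM in GATA2 cells, against 1.44, 1.06, 1.81 and 3.38 TPM in enhancer-null control cells. With GATA2 its log2 difference was 0.52 ± 0.30 (SE, edgeR, adjusted p = 0.26), and 1.00 without replicate 4 of the enhancer-null control cells (adjusted p = 0.0133).

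The Syk-linked receptors were lower with each vector. Clec1b had 2.89, 2.87, 3.76 and 1.19 TPM in R307W cells, 1.92, 2.54, 3.34 and 1.54 TPM in T354M cells and 2.69, 3.20, 3.67 and 2.14 TPM in GATA2 cells, against 5.08, 5.90, 5.83 and 9.06 TPM in enhancer-null control cells. All 12 vector libraries lay below all 4 control libraries. The log2 difference was -1.30 ± 0.32 with R307W, -1.36 ± 0.32 with T354M and -1.10 ± 0.32 with GATA2 (SE, edgeR, adjusted p = 0.00951, 0.00681 and 0.0202). Gp6 had 0.28, 0.52, 0.66 and 0.15 TPM in R307W cells, 0.28, 0.85, 0.71 and 0.41 TPM in T354M cells and 0.64, 0.88, 1.12 and 0.35 TPM in GATA2 cells, against 0.87, 0.96, 1.47 and 2.78 TPM in enhancer-null control cells. Libraries of the variants lay below all control libraries, and those of GATA2 overlapped them. The log2 difference of Gp6 was -1.89 ± 0.41 with R307W, -1.31 ± 0.40 with T354M and -1.28 ± 0.40 with GATA2 (SE, edgeR, adjusted p = 0.00429, 0.0285 and 0.0292). Without replicate 4 of the enhancer-null control cells it was -0.87 with T354M and -0.84 with GATA2, neither of them called.

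Both chemokines were lower with each variant. Pf4 had 55.8, 67.6, 69.9 and 46.8 TPM in R307W cells, 34.9, 55.2, 74.7 and 53.7 TPM in T354M cells and 100.3, 97.9, 78.5 and 128.5 TPM in GATA2 cells, against 88.9, 70.4, 101.8 and 206.7 TPM in enhancer-null control cells. Only the R307W libraries did not overlap those of the enhancer-null control cells. The log2 difference of Pf4 was -1.04 ± 0.33 with R307W, -1.18 ± 0.34 with T354M and -0.25 ± 0.33 with GATA2 (SE, edgeR, adjusted p = 0.038, 0.0212 and 0.675). Without replicate 4 of the enhancer-null control cells the first was -0.50 and the second -0.64, and neither was called. Ppbp had 13.2, 17.4, 25.01 and 10.3 TPM in R307W cells, 8.02, 24.3, 28.5 and 12.01 TPM in T354M cells and 23, 28.7, 29.1 and 23.5 TPM in GATA2 cells, against 30.5, 29.7, 46.1 and 67.9 TPM in enhancer-null control cells. All 12 vector libraries were below all 4 control libraries, and the log2 difference was -1.45 ± 0.37 with R307W, -1.30 ± 0.37 with T354M and -0.73 ± 0.36 with GATA2 (SE, edgeR, adjusted p = 0.0118, 0.0203 and 0.175). Both variant calls for Ppbp were lost without that replicate, at adjusted p = 0.057 and 0.0973.

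Plek had 58.5, 51.9, 55.7 and 43.7 TPM in R307W cells, 46.6, 58.7, 46.7 and 37.0 TPM in T354M cells and 78.5, 69.1, 68.3 and 60.0 TPM in GATA2 cells, against 63.2, 74.9, 74.0 and 71.6 TPM in enhancer-null control cells. The variant libraries lay below all control libraries, and the GATA2 libraries overlapped them. The log2 difference was -0.50 ± 0.14 with R307W and -0.67 ± 0.14 with T354M (SE, edgeR, adjusted p = 0.0208 and 0.00335), and -0.00 ± 0.14 with GATA2. The R307W call was lost without replicate 4 of the enhancer-null control cells (-0.47, adjusted p = 0.0609). The annotated bounds of Plek overlap Cnrip1 on the other strand, and no source used here says whether the counting used strand.

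The variants were then compared with unchanged GATA2 and with each other in enhancer-null cells. With R307W against GATA2 no gene of the 10 was called by edgeR and DESeq2 called Plek (-0.52, adjusted p = 0.0245). EdgeR called 0.587% of all genes higher and 1.14% lower there. With T354M against GATA2 2 of 10 were lower, Gp5 and Plek, and DESeq2 called Pf4 as well (-0.95, adjusted p = 0.0362), where 3.86% of all genes were higher and 6.14% lower. With R307W against T354M no gene was called by edgeR or by DESeq2, where 2.3% of all genes were higher and 1.19% lower. The edgeR p before adjustment was under 0.05 for 3 genes in R307W against GATA2, 4 in T354M against GATA2 and 1 in R307W against T354M. The shares of all genes above are at an adjusted p under 0.05, and no share was taken at the unadjusted threshold. These comparisons share libraries with each other.

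Gp5 was lower in T354M cells than in GATA2 cells by a log2 difference of -1.41 ± 0.31 (SE, edgeR, adjusted p = 0.00522), and the libraries did not overlap. Plek was lower in T354M cells than in GATA2 cells by -0.67 ± 0.14 (SE, edgeR, adjusted p = 0.0042), again with no overlap. R307W minus GATA2 was -0.51 ± 0.30 for Gp5 and -0.50 ± 0.14 for Plek (SE, edgeR, adjusted p = 0.769 and 0.0949). The replicate number as a block pairs libraries in these comparisons. With the block over all libraries, the wild-type ones included, edgeR also called Plek in R307W against GATA2 (-0.50, adjusted p = 0.0208) and Pf4 in T354M against GATA2 (-0.94, adjusted p = 0.028). It then called Gp5 in R307W against T354M too (0.91, adjusted p = 0.0481). With the block over the 16 enhancer-null libraries alone, edgeR called Plek (-0.51, adjusted p = 0.00437) and Pf4 (-0.96, adjusted p = 0.0372) in the same comparisons, but not Gp5. The unblocked log2 differences were -0.93 ± 0.33 for Pf4 in T354M against GATA2 and 0.90 ± 0.31 for Gp5 in R307W against T354M (SE). Itga2b had a log2 difference of -0.66 ± 0.30 in R307W against GATA2 (SE, edgeR, adjusted p = 0.503), although the R307W libraries all lay below the GATA2 libraries in TPM.

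**Figure D3:**
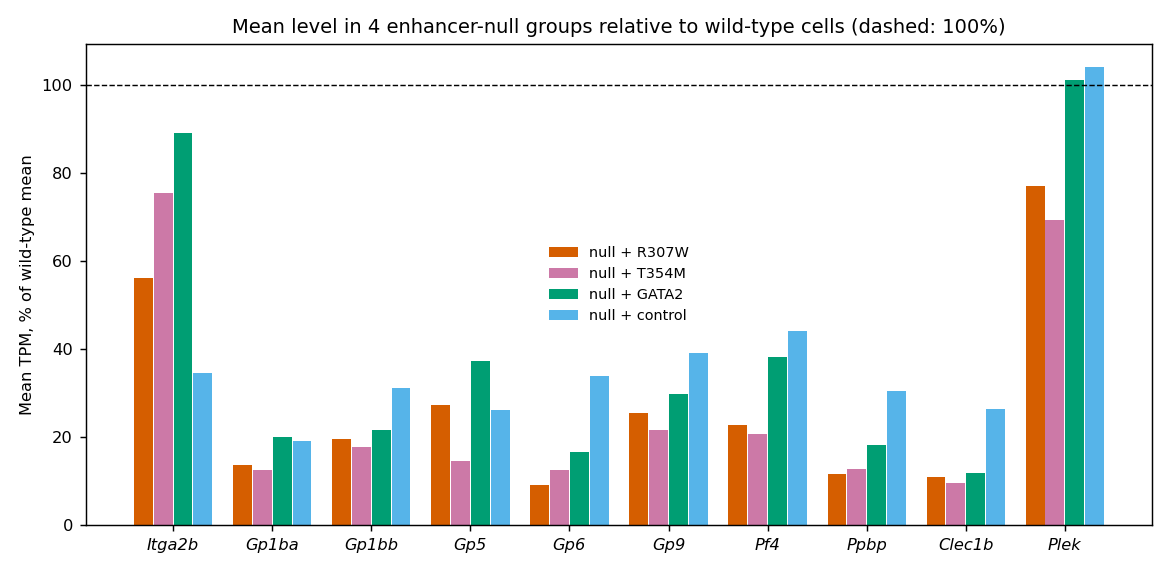
Mean TPM of each of the 10 genes in the 4 enhancer-null groups as a percentage of its mean in wild-type cells (vertical axis, from 0, dashed line at 100%), with 1 bar per vector. Itga2b reaches 89.0% with GATA2, Plek lies between 69.3% and 104%, and the other 8 genes lie between 8.96% and 44.1% in every group. The edgeR fit to the counts puts Itga2b with GATA2 lower, at 0.705 times its wild-type level.

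Against wild-type cells, 10 of the 10 genes were lower with R307W, 9 with T354M and 8 with GATA2. Among all genes 17% were lower and 16.5% higher with R307W, 18.4% lower and 18.6% higher with T354M, and 16% lower and 14.7% higher with GATA2. The medians over the 10 genes were -2.34, -2.74 and -2.02, where those of all genes were 0.01, 0.02 and -0.00. The genes not called were Itga2b with T354M (-0.69 ± 0.30, SE) and Itga2b and Plek with GATA2 (-0.50 ± 0.29 and -0.07 ± 0.14). Itga2b with T354M was called lower by DESeq2 (-0.71, adjusted p = 0.0447) and by edgeR without replicate 4 of the T354M cells (-0.97, adjusted p = 0.0164). Plek was called with R307W (-0.57 ± 0.14) and T354M (-0.74 ± 0.14, SE, edgeR), although both groups overlapped wild-type cells in TPM. Its R307W call was lost by limma on log2(TPM + 1) and log2(TPM + 0.1), at adjusted p = 0.106 and 0.105. The differences most below 0 were those of Gp6 with R307W, at -3.64 ± 0.42 (SE, edgeR, adjusted p = 2.23e-06), and of Clec1b with T354M, at -3.35 ± 0.33 (SE, edgeR, adjusted p = 2.36e-07). These 3 comparisons share the wild-type libraries.

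In the order of group means, 9 of the 10 genes were highest in wild-type cells, and Plek was highest in enhancer-null control cells. The lowest mean was that of T354M cells for 7 genes, of R307W cells for 2 and of enhancer-null control cells for 1, Itga2b. For Itga2b no 2 neighbours in the order differed at the adjusted threshold. Most neighbours in the other orders did not differ at the adjusted threshold. For Gp1ba and Gp5 the 4 enhancer-null groups formed a run with no call between neighbours (for Gp5 its ends, T354M and GATA2, differed), and the call came between GATA2 cells and wild-type cells. For Gp1bb, Gp9, Pf4 and Ppbp the call between neighbours came between enhancer-null control cells and wild-type cells. Groups that are not neighbours differed too, since Pf4 and Ppbp were lower in R307W and in T354M cells than in enhancer-null control cells, and Itga2b was higher in GATA2 cells than in enhancer-null control cells. For Gp6 and Clec1b there were calls on both sides of the enhancer-null control cells, which stood above GATA2 cells and below wild-type cells.

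**Figure D4:**
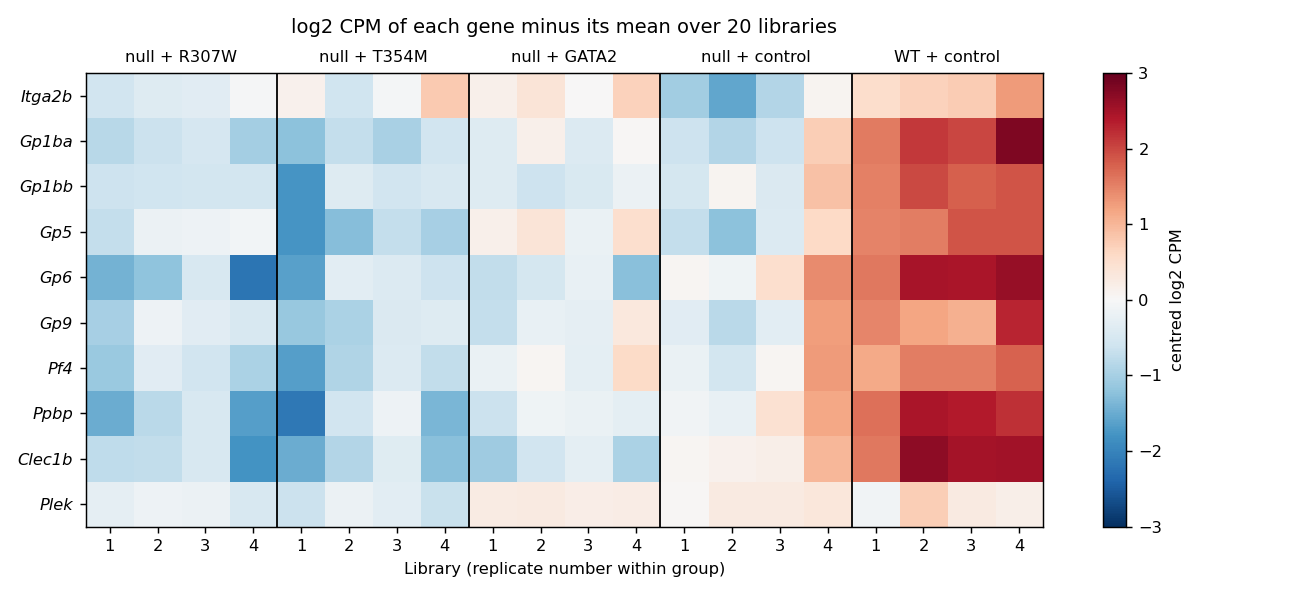
log2 CPM (library-scaled counts) of each of the 10 genes minus the gene's mean over the 20 libraries (colour, red above and blue below), with libraries by group and replicate number along the horizontal axis. Red marks the 4 wild-type libraries for all genes but Plek and replicate 4 of the enhancer-null control cells for most genes, and the row of Itga2b differs from the others in the GATA2 and T354M columns.

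The 10 genes did not all follow 1 pattern over the 20 libraries. Likeness was measured as the root mean square difference of log2 CPM after each gene's mean was removed, so that 0 is the same pattern. The closest pairs were Gp9 and Pf4 at 0.32, Gp6 and Clec1b at 0.33, and Ppbp and Clec1b at 0.34, and the most distant was Itga2b and Gp6 at 1.28. The neighbouring genes Pf4 and Ppbp were 0.50 apart. Among protein-coding genes, Itga2b was most like Tmem40, Dtx3 and Smim5, at 0.35 to 0.36. Gp1ba was most like Pde3a, Parvb and Selp, at 0.30 to 0.36, Gp1bb like Parvb, F2rl2 and Gucy1b1, at 0.32 to 0.37, and Gp5 like Slamf1, Pde5a and Proser2, at 0.32 to 0.36. Gp9 was most like Pf4, Gas2l1 and Kalrn, at 0.32 to 0.35, and Pf4 like F2rl2, Kalrn and Proser2, at 0.27 to 0.30. Gp6 was most like Syt13, Alox12 and Clec1b, at 0.27 to 0.33, Clec1b like Syt13, Tubb1 and Gng11, at 0.27 to 0.30, and Ppbp like Gucy1b1, Tubb1 and Mrvi1, at 0.27 to 0.29. Plek was most like Mocos, Lrrc8b and Sh3glb1, at 0.19 to 0.20, but its own SD over the libraries was only 0.36, against 0.70 for Itga2b and 1.42 for Gp6. All these values share the same libraries and depth.

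The sequence before the start of each gene was read for the letters that GATA and ETS factors bind, since 9 of the 10 genes were lower without the enhancer while Itga2b alone was called higher with GATA2. Promoters of 250 bases were taken from RefSeq (GRCm38.p6), and all 10 genes matched. The GATA letters searched were AGATAA or AGATAG or TGATAA or TGATAG and the ETS letters AGGAAG or CGGAAG, on both strands. Of the 10 promoters 5 held GATA letters, against 26.5% of 32851 promoters of the same length, 6 held ETS letters, against 39.2%, 3 held both, against 9.21%, and 2 held neither, Ppbp and Plek. Those of 6 genes are printed 5′ to 3′ on the gene's strand, with matches on either strand in capitals: Itga2b for its own response, Gp1ba and Gp5 for the most GATA matches, Gp6 and Clec1b for the calls below the enhancer-null control cells, and Plek for no match.
Itga2b: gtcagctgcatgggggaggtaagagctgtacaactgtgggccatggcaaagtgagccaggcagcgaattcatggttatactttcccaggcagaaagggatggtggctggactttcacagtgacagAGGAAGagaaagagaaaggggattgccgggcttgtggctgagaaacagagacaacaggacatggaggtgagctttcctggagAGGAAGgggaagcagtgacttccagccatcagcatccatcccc
Gp1ba: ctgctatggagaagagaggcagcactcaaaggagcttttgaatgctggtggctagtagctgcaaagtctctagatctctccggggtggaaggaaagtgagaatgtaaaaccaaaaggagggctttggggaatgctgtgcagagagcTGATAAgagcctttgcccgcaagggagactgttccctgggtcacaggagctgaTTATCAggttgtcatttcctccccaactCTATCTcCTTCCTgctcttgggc
Gp5: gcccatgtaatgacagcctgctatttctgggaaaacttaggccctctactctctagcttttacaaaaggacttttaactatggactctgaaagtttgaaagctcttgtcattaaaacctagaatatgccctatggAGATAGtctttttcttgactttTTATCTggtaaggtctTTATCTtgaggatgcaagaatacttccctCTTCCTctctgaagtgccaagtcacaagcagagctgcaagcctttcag
Gp6: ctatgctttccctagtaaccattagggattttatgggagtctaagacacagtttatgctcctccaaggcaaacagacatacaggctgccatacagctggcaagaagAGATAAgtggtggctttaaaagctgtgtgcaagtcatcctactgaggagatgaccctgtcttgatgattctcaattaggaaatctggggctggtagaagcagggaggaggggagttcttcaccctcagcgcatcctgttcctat
Clec1b: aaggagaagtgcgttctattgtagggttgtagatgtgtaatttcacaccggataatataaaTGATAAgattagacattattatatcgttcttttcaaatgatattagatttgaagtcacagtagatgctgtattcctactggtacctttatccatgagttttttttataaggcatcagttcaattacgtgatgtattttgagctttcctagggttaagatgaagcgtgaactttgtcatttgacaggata
Plek: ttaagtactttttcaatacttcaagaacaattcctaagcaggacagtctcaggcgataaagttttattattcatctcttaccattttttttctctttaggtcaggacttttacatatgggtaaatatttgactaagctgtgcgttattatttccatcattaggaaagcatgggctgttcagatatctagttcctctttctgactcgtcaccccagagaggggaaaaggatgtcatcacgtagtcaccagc
They lie at chr11:102469884-102470133 (minus strand), chr11:70638872-70639121 (plus), chr16:30310782-30311031 (minus), chr7:4397745-4397994 (minus), chr6:129397047-129397296 (plus) and chr11:17008719-17008968 (minus). The Itga2b promoter held 2 ETS matches, which begin 125 and 43 bases before the start, and no GATA match in this window. Gp1ba held 3 GATA matches, at 104, 51 and 23 bases before the start, and an ETS match at 16. Gp5 held 3 GATA matches, at 115, 93 and 77 bases, and an ETS match at 48. Gp6 and Clec1b each held 1 GATA match, at 144 and 189 bases. The Plek window lies before its RefSeq start but inside the bounds that GENCODE gives the gene. The bases before the GENCODE start of Plek were not read. A match of letters describes the sequence and shows no binding.

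In the GENCODE annotation of GRCm38, whole genes span chr11:102453297-102470122 for Itga2b, chr11:70639122-70642036 for Gp1ba and chr11:16971206-17052381 for Plek. Gp1bb and Gp5 share chromosome 16, at chr16:18620317-18622403 and chr16:30307685-30310779, and Gp6 lies at chr7:4363965-4397744. Ppbp, at chr5:90768518-90770063, and Pf4, at chr5:90772435-90773383, are neighbours. Clec1b lies at chr6:129397297-129409335, within bounds shared with Clec9a on the same strand. Gp9, at chr6:87778072-87779768, starts 416 kb from the start of Gata2 on chromosome 6.

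Other genes of megakaryocytes and platelets were read from 6 lists with 102 genes, of which 101 were tested. In enhancer-null control cells 44 of these were lower and 20 higher than in wild-type cells, with a median log2 difference of -0.30, where 23.2% of all genes were lower and 20.1% higher. With R307W 26 were lower and 25 higher than in enhancer-null control cells, with T354M 25 lower and 18 higher, and with GATA2 18 lower and 27 higher. Among all genes 7.48% were lower and 10% higher with R307W, 8.11% and 9.26% with T354M, and 8.23% and 11% with GATA2. The medians over the listed genes were -0.14, -0.24 and 0.04. In T354M cells 23 were lower and 6 higher than in GATA2 cells, and in R307W cells 6 were lower and 3 higher than in GATA2 cells. In R307W cells 9 were higher and 3 lower than in T354M cells. Among all genes 6.14% were lower and 3.86% higher in T354M than in GATA2 cells, 1.14% lower and 0.587% higher in R307W than in GATA2 cells, and 2.3% higher and 1.19% lower in R307W than in T354M cells. Against wild-type cells 39 were lower and 23 higher with R307W, 42 lower and 20 higher with T354M, and 33 lower and 24 higher with GATA2, where the shares of all genes were 17% lower and 16.5% higher, 18.4% lower and 18.6% higher, and 16% lower and 14.7% higher. The counts for each list that follow stand against the same shares of all genes. These counts and the values of single listed genes rest on all 20 libraries, replicate 4 of the enhancer-null control cells included.

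Among 12 transcription factors, 5 were lower and 4 higher in enhancer-null control cells than in wild-type cells. Against enhancer-null control cells 6 were higher and 0 lower with R307W, 3 higher and 2 lower with T354M, and 6 higher and 1 lower with GATA2. Gata1, the factor of maturing megakaryocytes, erythroid cells, mast cells and eosinophils, averaged 20.9 ± 8.57 TPM in R307W cells, 7.26 ± 3.58 TPM in T354M cells, 26.4 ± 7.90 TPM in GATA2 cells and 3.08 ± 0.637 TPM in enhancer-null control cells, against 45.3 ± 4.98 TPM in wild-type cells (SD, n = 4 each). Its log2 difference from enhancer-null control cells was 2.73 ± 0.37 with R307W, 1.15 ± 0.36 with T354M and 3.13 ± 0.37 with GATA2 (SE, edgeR, adjusted p = 5.37e-05, 0.034 and 1.49e-05). T354M minus GATA2 was -1.99 ± 0.35 (SE, adjusted p = 0.000835). Gata1 was thus called higher with each vector, whereas over the 20 libraries edgeR called Itga2b alone of the 10 platelet genes higher, with GATA2. DESeq2 and the replicate block also called Itga2b higher with T354M. Nfe2, which acts late in platelet formation, was higher with each vector by 0.90 ± 0.13 with R307W, 0.83 ± 0.13 with T354M and 0.79 ± 0.13 with GATA2 (SE, edgeR, adjusted p = 8.93e-05, 0.000203 and 0.0003). It was lower in enhancer-null control cells than in wild-type cells by -0.72 ± 0.13. Fli1 was higher in enhancer-null control cells than in wild-type cells (0.51 ± 0.11, SE, adjusted p = 0.000997) and was not called with any vector against the control vector.

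Of 7 genes of thrombopoietin signalling 6 were tested, and 3 were lower and 2 higher in enhancer-null control cells than in wild-type cells. Jak2, a kinase bound to cytokine receptors, was lower in T354M cells than in GATA2 cells by -1.09 ± 0.15 (SE, adjusted p = 0.000115). Sh2b3, an adaptor that restrains that kinase, was higher in enhancer-null control cells than in wild-type cells (0.79 ± 0.12, SE, adjusted p = 4.69e-05).

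Among 25 other surface receptors 14 were lower and 4 higher in enhancer-null control cells than in wild-type cells. Against enhancer-null control cells 7 were lower and 3 higher with R307W, 7 lower and 2 higher with T354M, and 4 lower and 7 higher with GATA2. Itgb3, the integrin chain that pairs with Itga2b, averaged 6.61 ± 0.925 TPM in R307W cells, 7.22 ± 0.771 TPM in T354M cells, 14.1 ± 4.68 TPM in GATA2 cells and 8.56 ± 3.05 TPM in enhancer-null control cells, against 23.7 ± 4.12 TPM in wild-type cells (SD, n = 4 each). It was higher with GATA2 than with the control vector (0.73 ± 0.25, SE, edgeR, adjusted p = 0.0461). It was lower with R307W (-1.16 ± 0.25, adjusted p = 0.0189) and with T354M (-1.02 ± 0.25, adjusted p = 0.0114) than with GATA2. P2ry12, an ADP receptor of platelets that macrophages of some tissues also make, was higher in enhancer-null control cells than in wild-type cells (1.40 ± 0.43, SE, adjusted p = 0.0127), where the monocyte and macrophage markers were higher as well. A link between P2ry12 and those markers was not tested. F2rl3, a thrombin receptor, was not called there (-0.09 ± 0.18).

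Among 21 granule genes 10 were lower and 2 higher in enhancer-null control cells than in wild-type cells. Vwf, the adhesive ligand of the receptor above, which endothelial cells also make, averaged 2.04 ± 0.817 TPM in R307W cells, 1.81 ± 0.639 TPM in T354M cells, 3.00 ± 0.318 TPM in GATA2 cells and 4.14 ± 2.31 TPM in enhancer-null control cells, against 13.8 ± 6.45 TPM in wild-type cells (SD, n = 4 each). The endothelial markers summed to 46.0 to 66.4 TPM in R307W cells, 51.1 to 74.8 TPM in T354M cells, 62.1 to 84.5 TPM in GATA2 cells and 44.7 to 49.3 TPM in enhancer-null control cells, against 42.8 to 67.3 TPM in wild-type cells. That marker list holds Vwf itself, and Esam, which is also among the surface receptors above. Of its 8 genes tested 2 were lower and 2 higher in enhancer-null control cells than in wild-type cells. Pecam1 and Egfl7 made up most of these sums. Against enhancer-null control cells 3 endothelial markers were lower and 1 higher with R307W, 4 lower and 1 higher with T354M, and 1 lower and 2 higher with GATA2. Their median log2 differences were -1.11, -1.10 and -0.58. The part of endothelial cells in the level of Vwf was not tested. Selp, the adhesion molecule that granules bring to the surface, was lower in enhancer-null control cells than in wild-type cells (-1.93 ± 0.32, SE, adjusted p = 6.37e-05), and Nbeal2, needed for alpha granules, was not called (-0.03 ± 0.29).

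Among 22 signalling genes and eicosanoid enzymes 7 were lower and 6 higher in enhancer-null control cells than in wild-type cells. Rasgrp2, which activates the small GTPase Rap1, was higher with R307W and with T354M than with GATA2, by 0.51 ± 0.12 and 0.89 ± 0.12 (SE, edgeR, adjusted p = 0.0406 and 0.000115). Ptgs1, the cyclooxygenase that platelets use for thromboxane, and Fermt3, the integrin activator kindlin-3, were not called in enhancer-null control cells against wild-type cells (0.52 ± 0.21 and 0.08 ± 0.19, SE). Among 15 genes of the cytoskeleton and of proplatelets 5 were lower and 2 higher. Tubb1, the beta tubulin of the platelet rim, averaged 2.10 ± 0.607 TPM in R307W cells, 2.25 ± 0.86 TPM in T354M cells, 2.73 ± 0.413 TPM in GATA2 cells and 5.22 ± 2.69 TPM in enhancer-null control cells, against 21.7 ± 5.34 TPM in wild-type cells (SD, n = 4 each). Myl9, a myosin light chain, was lower with every vector than with the control vector, by -2.31 ± 0.41 with R307W, -1.44 ± 0.38 with T354M and -1.39 ± 0.38 with GATA2 (SE, edgeR, adjusted p = 0.000759, 0.0138 and 0.0154). Myh9, the nonmuscle myosin that many cells use, was not called in any of the 10 comparisons.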

How the data were processed

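RNA-seq gene tables of 20 mouse libraries were used, 1 per library. Per the submitters' processing notes the reads went through STAR 2.5.2b and RSEM 1.3.0 on mm10, and per the labels' protocols libraries from total RNA followed NuGEN Ovation. The expected counts and the TPM are the authors' deposited values. RSEM splits reads that map to several genes, so expected counts can be fractional, and TPM is scaled to gene length and library total. TPM served for levels. The deposited FPKM values were not used.

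Symbols for 53274 of 53379 identifiers came from GENCODE M21 (GRCm38). Counts were rounded, filtered with filterByExpr to 15835 genes and given TMM factors. A single fit of 20 libraries and 5 group means in edgeR 4.0.16 (R 4.3.3) gave quasi-likelihood F tests for 10 comparisons. Benjamini-Hochberg adjustment ran over all genes tested in a comparison, with calls at 0.05. The SE is the log2 difference divided by the square root of F. The test ran on simulated counts with known changes. Alternatives were DESeq2 1.42.0 (size factors, Wald test), no filter, a replicate block, the 8 libraries of a comparison alone, limma 3.58.1 on log2(TPM + 1) and log2(TPM + 0.1), and left-out libraries. The replicate block was fitted over all 20 libraries, the wild-type ones included. A block over the enhancer-null libraries alone was added after seeing the data.

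The genes named are the 10 listed genes, Gata2, the first 3 genes of each of 6 lists, except 1 that is not reported here, and the 3 protein-coding genes most like each listed gene. These genes and lists, the marker lists included, were chosen with earlier results of these data known. Replicate numbers in the labels were checked by correlating the deviations of same-numbered libraries from their group means over genes. All 4 correlations passed 0.1 between the GATA2 cells and each other enhancer-null group and between R307W and T354M cells (lowest 0.12), so those numbers were taken as pairs. They did not between the enhancer-null control cells and R307W or T354M cells (lowest 0.02 and 0.06) or with wild-type cells. The Y-linked gene Ddx3y had 2.12 to 2.45 TPM in replicate 1, 11.56 to 13.90 TPM in replicates 2 and 3 and 0.00 TPM in replicate 4 of the 4 enhancer-null groups alike. It does not tell replicates 2 and 3 apart, and in wild-type cells it had 9.56, 33.74, 0.00 and 10.69 TPM. The X-linked transcript Xist spread more, from 48.84 to 102.52 TPM in replicate 1 of the enhancer-null groups. The Ddx3y levels are a hint from the data that same-numbered enhancer-null libraries share their source material. Blocked values are therefore given beside the calls they change in all comparisons of enhancer-null groups. Where a library is left out, a group has 3 libraries. The variant libraries have shorter records, and a difference in their handling cannot be told apart from the variants.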

Additional observations from a re-analysis of the deposited data

Results flagged for a closer look

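In 4 of 55 sets of 4 libraries (the 10 genes and Gata2 in 5 groups) 1 library lay far from the other 3, with a gap past Dixon's critical value. Chance alone flags about 1 in 20 such sets. Replicate 4 of the enhancer-null control cells was high for Gp1ba, at 1.22 TPM where the next was 0.5 TPM, and for Gp9, at 9.92 TPM where the next was 3.62 TPM. Replicate 3 of the GATA2 cells was low for Gp5, at 2.08 TPM where the next was 2.93 TPM. Replicate 1 of the wild-type cells was low for Pf4, at 184.12 TPM where the next was 283.3 TPM.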

How the results depend on the processing

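Of 100 log2 differences (10 genes in 10 comparisons), 51 were called, and under 1660 recomputed values no called direction reversed. Of 36 calls against wild-type cells 1 was lost under some alternative (Plek with R307W), and of 13 calls against enhancer-null control cells 12 were lost. With 1 library left out, the number of the 10 genes called was 2 to 5 for R307W, 2 to 7 for T354M and 0 to 3 for GATA2 against enhancer-null control cells. It was 9 to 9 for enhancer-null control against wild-type cells, and 10 to 10 for R307W, 9 to 10 for T354M and 8 to 8 for GATA2 against wild-type cells. It was 0 to 0 for R307W and 2 to 2 for T354M against GATA2, and 0 to 0 for R307W against T354M. For R307W against enhancer-null control cells, where 5 were called, limma with either pseudocount called 3, and leaving out replicate 4 of every group 1 (Itga2b, higher). For T354M, where 5 were called, all lower, the DESeq2 Wald test and the replicate block called 8, and the block over the enhancer-null libraries 9. In those settings Itga2b was called higher (0.83, 0.89 and 0.85) and the other called genes lower. For T354M the 8 libraries alone called 3, and leaving out replicate 4 of every group 2, of which 1 was higher and 1 lower. For R307W against GATA2, where 0 were called, the DESeq2 Wald test, no filter, the 8 libraries alone and each replicate block called 1. For R307W against T354M, where 0 were called, the replicate block called 1. The cause of these changes was not tested, and the shares of all genes called under each alternative are not given here. The block on replicate number changed no other count by more than 1.5 times. For T354M against enhancer-null control cells 3 of 4 same-numbered correlations passed 0.1, so the numbers did not pair by the rule used, although the levels of Ddx3y matched by number. Limma on TPM moved the median of all genes by up to 0.12 on the log2 scale in comparisons with wild-type cells. Precision is lowest for Gp6, Gp1bb and Gp1ba, with as few as 15, 16 and 25 expected counts in a library.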
